A study of Homo sapiens with 6 samples.

Results

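The genes described are 48 members of the BMP, TGF-beta and activin signalling pathway, out of 58735 genes counted in SY5Y cells with and without overexpression of the homeobox transcription factor DLX5. They were taken by gene symbol from a list that was chosen with earlier results of these data known. They fall into 7 BMP and GDF ligands, 3 TGF-beta ligands, 3 activin and inhibin subunits, 10 receptors and 8 SMADs. The rest are 7 antagonists, 4 latent TGF-beta binding proteins and 6 intracellular feedback and target genes. SY5Y is an established human neuroblastoma line of sympathetic origin. RNA was sequenced in 3 libraries of a line built to overexpress DLX5 (the DLX5 libraries) and in 3 libraries of control cells of the same line (the Control libraries). All cells were grown in DMEM/F12 medium with fetal bovine serum, itself a source of growth factors. What the Control cells carried, what drives DLX5 and whether either line is 1 clone are not given in the sources used here. Whether the replicates are separate cultures is not said in the labels, and the p-values then cover only the spread among these 6 libraries, which could be technical.

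Ligands of this family bind paired type I and type II receptor kinases, and the type I receptor then phosphorylates SMAD proteins. BMP receptors act mainly through SMAD1, SMAD5 and SMAD9, TGF-beta and activin receptors through SMAD2 and SMAD3, and all of these enter the nucleus with SMAD4. Secreted antagonists, latent binding proteins, the inhibitory SMAD6 and SMAD7 and ubiquitin ligases limit the signal. In the embryo, BMPs from the dorsal aorta are known to induce the sympathetic neuron programme from which neuroblastoma arises, and TGF-beta is best known for matrix production and growth arrest.

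DLX5 itself measured 1582, 1569 and 1677 CPM in the DLX5 libraries, against 12.4, 12.3 and 13.8 CPM in the Control libraries. CPM are counts scaled to the TMM-normalised library size. Each library thus matched its label. The libraries held between 14644077 and 16886026 assigned reads. The 9 sympathetic markers were present in both groups, but all 9 were lower in the DLX5 libraries, with a summed level of 1634 to 1767 CPM against 4571 to 5082 CPM in the Control libraries. Of 9 fibroblast markers 8 were tested and 7 were higher, with sums of 5086 to 5267 CPM in the DLX5 libraries against 1595 to 1641 CPM in the Control libraries, and POSTN was at 0 throughout. Most of the fibroblast sum was COL3A1, with 265076 counts over all 6 libraries. The tested fibroblast markers had a median log2 fold change of 0.63, and 3 of them were higher by at least 2-fold. Of 5 epithelial markers 3 were higher and 1 lower, with sums of 27.8 to 31.7 CPM in the DLX5 libraries against 4.86 to 7.50 CPM in the Control libraries. Other cell types were near 0. Endothelial markers (1 of 3 tested higher) summed to 2.32 to 3.43 CPM in the DLX5 libraries against 1.21 to 1.52 CPM in the Control libraries, Schwann cell markers (2 of 4 tested higher, 1 lower) to 8.33 to 8.54 against 4.02 to 5.51 CPM, and blood markers (0 of 1 tested passed, CD3E at 0 throughout) to 0.670 to 1.20 against 0.420 to 0.974 CPM. The part of these marker changes in the results on the pathway was not tested. In bulk RNA, fewer cells of a type and less RNA per cell cannot be told apart.

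The pathway took a larger share of the reads with DLX5. Its 48 genes held 0.549% ± 0.00714 of all counts in the DLX5 libraries and 0.271% ± 0.00345 in the Control libraries (SD, n = 3 each). The antagonist FSTL1 alone made up 35.7% to 37.0% of these counts in the DLX5 libraries and 10.7% to 11.4% in the Control libraries. Without FSTL1 the shares were 0.350% in the DLX5 libraries and 0.241% in the Control libraries, and the groups still did not overlap.

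Of the 48 members 41 had enough counts to be tested. At an adjusted p under 0.05 in edgeR's quasi-likelihood test, 22 rose with DLX5, 12 fell and 7 did not pass. The background is high in this comparison, since 58.6% of all 17269 genes tested passed, 29.8% higher and 28.8% lower. Among the tested members 53.7% were higher and 29.3% lower, so the share that fell was near the background. A change of at least 2-fold was more sparing, with 11.3% of all genes higher and 5.18% lower. By that measure 12 members rose (29.3%) and 3 fell (7.32%). The median log2 fold change of the tested members was 0.25, beside -0.0018 over all tested genes, and the median size of change was 0.75 against 0.36. All 34 members that passed had libraries that did not overlap between the groups, or 82.9% of those tested, where 62.5% of all tested genes did not overlap. The 7 members that did not pass all overlapped. Because the members were chosen with earlier results of these data known, these shares beside the background are descriptive only.

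**Figure D1:**
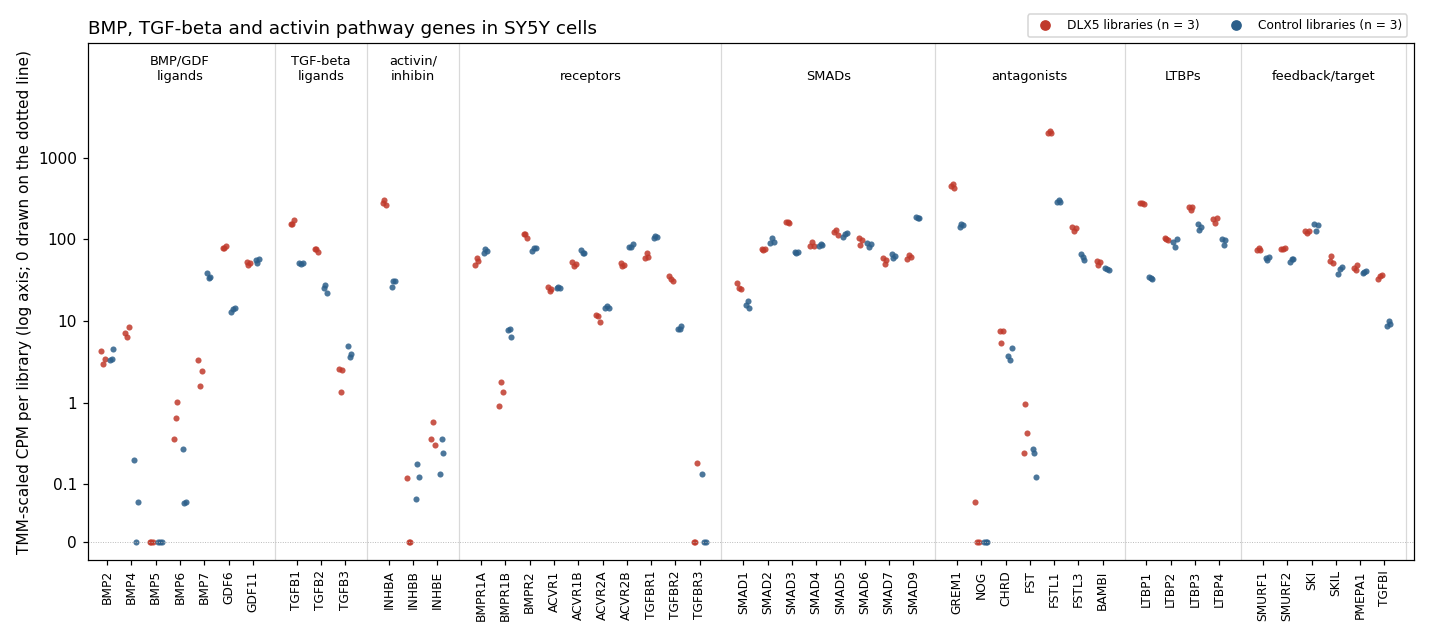
TMM-scaled CPM of each of the 48 pathway genes in each library (log axis, with 0 drawn on the dotted line), by role; red points are the 3 DLX5 libraries and blue points the 3 Control libraries. INHBA, LTBP1 and FSTL1 sit higher in the DLX5 libraries, and BMP7, BMPR1B and SMAD9 lower.

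Sequence upstream of the start site is shown for 5 members that changed by at least 2-fold, so that what a DLX-type or SMAD-type motif would look like in these genes can be seen. The windows were chosen after the values were seen. They are the 250 bases before a RefSeq start site (GRCh38.p14), 5′ to 3′ on the gene's strand, which is the plus strand for all 5. For LTBP1, GREM1, TGFBI and BMPR1B the start site lies within 100 bases of the annotated gene start, and for SMAD3 it is an internal start 34916 bases into the gene. Capitals mark TAATTA (the core bound by DLX-type homeodomains, the same on both strands), CAGAC read on either strand (a SMAD3 and SMAD4 element, GTCTG on the other strand) and GGCGCC (a BMP SMAD element, the same on both strands). The windows are chr2:32946703-32946952 for LTBP1, chr15:32717754-32718003 for GREM1, chr5:136028738-136028987 for TGFBI, chr15:67098429-67098678 for SMAD3 and chr4:94757705-94757954 for BMPR1B.
LTBP1: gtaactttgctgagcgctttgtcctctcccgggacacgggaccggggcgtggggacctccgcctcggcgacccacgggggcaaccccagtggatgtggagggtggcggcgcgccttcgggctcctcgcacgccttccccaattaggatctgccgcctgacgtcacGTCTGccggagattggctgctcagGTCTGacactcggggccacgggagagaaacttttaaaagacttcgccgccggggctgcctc
GREM1: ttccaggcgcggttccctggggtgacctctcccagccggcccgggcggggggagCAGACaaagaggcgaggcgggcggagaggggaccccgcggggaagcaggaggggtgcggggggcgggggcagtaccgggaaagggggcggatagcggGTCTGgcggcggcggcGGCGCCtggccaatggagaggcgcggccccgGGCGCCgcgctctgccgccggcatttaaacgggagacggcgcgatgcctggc
TGFBI: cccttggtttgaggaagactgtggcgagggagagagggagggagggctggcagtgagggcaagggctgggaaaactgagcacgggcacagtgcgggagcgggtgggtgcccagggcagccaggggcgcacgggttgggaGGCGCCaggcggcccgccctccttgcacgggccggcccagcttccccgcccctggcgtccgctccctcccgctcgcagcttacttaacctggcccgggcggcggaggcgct
SMAD3: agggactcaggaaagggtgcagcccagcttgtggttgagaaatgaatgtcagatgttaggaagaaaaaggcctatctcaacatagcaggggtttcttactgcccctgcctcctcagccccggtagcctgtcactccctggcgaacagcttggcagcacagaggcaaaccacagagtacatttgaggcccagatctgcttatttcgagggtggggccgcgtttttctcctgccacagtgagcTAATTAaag
BMPR1B: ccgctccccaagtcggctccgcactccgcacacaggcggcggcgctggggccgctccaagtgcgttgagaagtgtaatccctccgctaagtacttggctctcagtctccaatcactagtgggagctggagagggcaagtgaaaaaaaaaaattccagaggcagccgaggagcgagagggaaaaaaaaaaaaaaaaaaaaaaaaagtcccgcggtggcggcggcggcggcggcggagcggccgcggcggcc
LTBP1 and GREM1, which rose, each hold 2 copies of CAGAC, GREM1 also 2 of GGCGCC and TGFBI 1. The SMAD3 window holds TAATTA at position -9. BMPR1B, which fell, holds none of the 3 motifs in this window. Other windows of these genes differ. Of 3 windows of BMPR1B, another holds 3 copies of CAGAC. The window shown for SMAD3 is the 1 of its 5 that holds TAATTA, and 3 of the other SMAD3 windows hold CAGAC.

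Promoter windows of 300 bases (250 before and 50 after the start) were found for 42 members, 77 windows in all, and BMP2, BMP7, SKI, GDF6, NOG and INHBE had none. TAATTA stood in 2 of the 77 windows (2.60%), beside 4.84% of all 35116 windows. CAGAC stood in 38 (49.4%), beside 45.3%, and GGCGCC in 23 (29.9%), beside 19.2%. Of the 40 windows of members that rose, 2 held TAATTA, 24 CAGAC and 14 GGCGCC. Of the 24 windows of members that fell, 0 held TAATTA, 11 CAGAC and 4 GGCGCC. Several windows belong to the same gene. A match describes these letters only and does not show that a factor binds.

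Among the BMP and GDF ligands, BMP4 and GDF6 rose and BMP7 fell. BMP4, a ligand known to act on sympathetic precursors (chr14, 53949736 to 53958761, minus strand, GRCh38), measured 7.10, 6.46 and 8.46 CPM in the DLX5 libraries, against 0.201, 0 and 0.0609 CPM in the Control libraries. It was all but missing from Control, with 357 counts over the DLX5 libraries and 4 over the Control libraries, a count ratio of 88.3 (exact 95% counting interval 34.2 to 326). The fitted log2 fold change was 6.33 ± 0.38 (SE, adjusted p = 9.22e-14), and it ran from 5.76 to 7.60 as single libraries were left out, the highest of these without Control replicate 1 and the lowest without Control replicate 2. Counts this low in Control leave its size loose.

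BMP7, another BMP ligand (chr20, 57168748 to 57266629, minus strand), went the other way. It measured 3.37, 1.61 and 2.44 CPM in the DLX5 libraries, against 38.4, 34.0 and 34.3 CPM in the Control libraries, 14.2-fold lower (log2 fold change -3.83 ± 0.14, adjusted p = 4.13e-18). GDF6, a ligand known for joint and eye development, measured 77.7, 79.0 and 82.5 CPM in the DLX5 libraries, against 12.7, 14.0 and 14.3 CPM in the Control libraries (log2 fold change 2.54 ± 0.08, adjusted p = 7.33e-20). GDF11, a ligand that uses activin receptors, was at 51.0 ± 2.16 CPM in DLX5 libraries and 54.7 ± 2.53 CPM in Control libraries (log2 fold change -0.10, adjusted p = 0.232). BMP2 did not pass either (log2 fold change -0.08, adjusted p = 0.756). BMP6 had too few reads to be tested, with 33 counts in the DLX5 libraries and 6 in the Control libraries (ratio 5.44, counting interval 2.25 to 15.9), and BMP5 had no count in any library.

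Of the TGF-beta ligands, TGFB1 and TGFB2 rose and TGFB3 fell. TGFB1 (chr19, 41301587 to 41353911, minus strand) measured 155, 154 and 173 CPM in the DLX5 libraries, against 51.2, 50.2 and 51.5 CPM in the Control libraries (log2 fold change 1.66 ± 0.07, adjusted p = 1.22e-17). HNRNPUL1, on the opposite strand, shares 6.64% of the exon bases of TGFB1 and had 299% as many counts, at a log2 fold change of -0.15. Reads of overlapping genes could not be told apart by strand here. TGFB2 (chr1, 218346235 to 218444619, plus strand) measured 75.3, 75.7 and 70.2 CPM in the DLX5 libraries, against 25.3, 27.2 and 21.9 CPM in the Control libraries (log2 fold change 1.57 ± 0.08, adjusted p = 2.97e-15). TGFB3, the least abundant of the 3, measured 2.59, 1.36 and 2.50 CPM in the DLX5 libraries, against 4.96, 3.60 and 3.96 CPM in the Control libraries (log2 fold change -0.94 ± 0.24, adjusted p = 0.00126).

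INHBA, which encodes the subunit of activin A (chr7, 41667168 to 41705834, minus strand), rose with DLX5. It measured 278, 301 and 264 CPM in the DLX5 libraries, against 26.4, 31.2 and 31.0 CPM in the Control libraries, 9.50-fold higher (log2 fold change 3.25 ± 0.08, adjusted p = 9.33e-23). The other two subunit genes were near 0. INHBB had 2 counts in the DLX5 libraries and 6 in the Control libraries, and INHBE had 20 counts in the DLX5 libraries and 12 in the Control libraries (ratio 1.65, counting interval 0.768 to 3.70).

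The member ligands were set in order of FPKM, which is per gene length and so allows genes to be compared. In the DLX5 libraries they began with TGFB1 at 49.2, INHBA at 33.6, GDF6 at 21.3, TGFB2 at 14.2 and GDF11 at 5.84. Libraries of neighbours in this order did not overlap. BMP4 followed at 2.36 and BMP2 at 0.977, and BMP7 at 0.452 overlapped TGFB3 at 0.433. In the Control libraries TGFB1 led the member ligands at 15.6, before BMP7 at 6.52 and GDF11 at 6.27, whose libraries overlapped. TGFB2 stood at 4.77, GDF6 at 3.67 and INHBA at 3.53, and these last 2 overlapped as well. By mean, BMP7 was thus at rank 2 of the member ligands in Control and at rank 8 with DLX5. Ligands outside the members are not in this order. Of these, GDF15 stood at 29.8 FPKM in the DLX5 libraries and 20.2 FPKM in the Control libraries. AMH stood at 27.6 FPKM with DLX5 and 22.0 FPKM in Control.

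**Figure D2:**
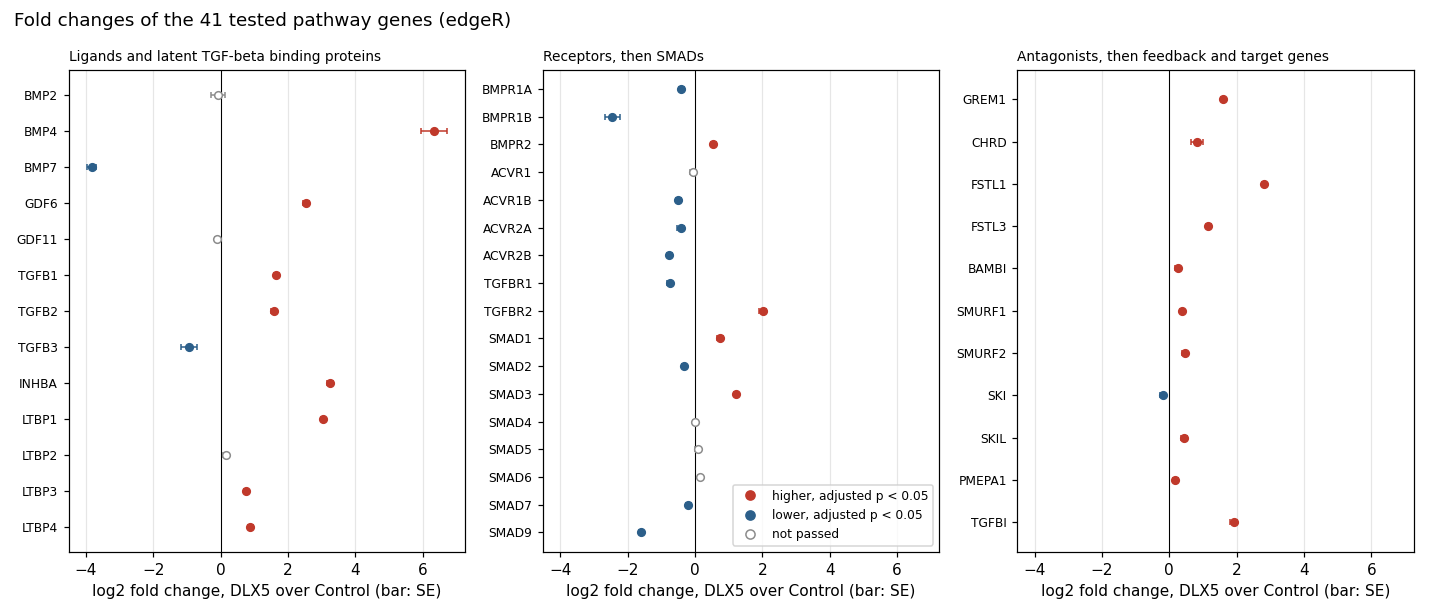
Log2 fold change of the 41 tested pathway genes, DLX5 over Control (points, edgeR; bars, standard error), by role; filled points passed an adjusted p under 0.05 and open points did not. Antagonists and latent binding proteins all lie above 0, while receptors and SMADs lie on both sides of it.

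Of 10 receptors 9 were tested, 6 fell, 2 rose and ACVR1 did not pass. Of those tested 66.7% fell and 22.2% rose, beside 28.8% and 29.8% of all tested genes. TGFBR2, the type II receptor of TGF-beta (chr3, 30606502 to 30694142, plus strand), rose. It measured 35.7, 32.2 and 31.0 CPM in the DLX5 libraries, against 7.97, 7.91 and 8.59 CPM in the Control libraries (log2 fold change 2.02 ± 0.10, adjusted p = 1.61e-15). Its type I partner TGFBR1 fell, to 59.5, 68.6 and 60.9 CPM in the DLX5 libraries, against 103, 110 and 106 CPM in the Control libraries (log2 fold change -0.75 ± 0.07, adjusted p = 2.72e-10). The 2 chains of the TGF-beta receptor moved in opposite directions.

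BMPR1B, a type I BMP receptor (chr4, 94757968 to 95158448, plus strand), fell most. It measured 0.902, 1.81 and 1.34 CPM in the DLX5 libraries, against 7.71, 7.97 and 6.46 CPM in the Control libraries (log2 fold change -2.45 ± 0.22, adjusted p = 2.59e-10). BMPR2, the type II BMP receptor and the most abundant receptor by mean FPKM in the DLX5 libraries, measured 115, 118 and 103 CPM there, against 71.9, 78.0 and 79.1 CPM in the Control libraries (log2 fold change 0.55 ± 0.07, adjusted p = 8.85e-08). The type I receptors BMPR1A and ACVR1B and the type II activin receptors ACVR2A and ACVR2B fell, by log2 fold changes of -0.41, -0.50, -0.43 and -0.76 in that order. ORC4 shares 6.35% of the exon bases of ACVR2A, had 319% as many counts and had a log2 fold change of -0.50. ACVR1 was at 24.4 ± 1.29 CPM in DLX5 libraries and 25.3 ± 0.525 CPM in Control libraries, and TGFBR3 had 3 counts with DLX5 and 2 in Control.

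By FPKM the receptors summed to 49.7 ± 1.57 in the DLX5 libraries and 56.9 ± 0.526 in the Control libraries (SD, n = 3 each). In the DLX5 libraries the order began with BMPR2 at 9.30, TGFBR1 at 9.13 and ACVR1B at 8.67, which overlapped, before TGFBR2 at 6.95. In the Control libraries it began with TGFBR1 at 15.4 and ACVR1B at 12.3, and TGFBR2 was the second lowest of the tested receptors at 1.72.

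Of the 8 SMADs 2 rose, 3 fell and 3 did not pass. The share that passed, 62.5%, was near the 58.6% of all tested genes. Both the BMP branch and the TGF-beta branch held a member that rose and a member that fell. SMAD9, a BMP SMAD (chr13, 36844831 to 36920765, minus strand), fell to 57.0, 64.1 and 61.5 CPM in the DLX5 libraries, against 186, 185 and 184 CPM in the Control libraries (log2 fold change -1.60 ± 0.06, adjusted p = 9.4e-18). SMAD3, a TGF-beta and activin SMAD (chr15, 67063763 to 67195195, plus strand), measured 163, 165 and 159 CPM in the DLX5 libraries, against 70.7, 67.1 and 70.6 CPM in the Control libraries (log2 fold change 1.22 ± 0.06, adjusted p = 1.28e-15). Neither gene's groups came near each other.

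The other SMADs changed less. SMAD1, also a BMP SMAD, rose by a log2 fold change of 0.75 ± 0.10 (adjusted p = 3.94e-07) and SMAD2 fell by 0.32 on the log2 scale (adjusted p = 0.000151). SMAD4, SMAD5 and the inhibitory SMAD6 did not pass, at log2 fold changes of 0.01, 0.08 and 0.15. The inhibitory SMAD7 fell by 0.21 on the log2 scale (adjusted p = 0.0194), but it lost its call when DLX5 replicate 2 (log2 fold change -0.13, adjusted p = 0.142) or Control replicate 1 (-0.17, adjusted p = 0.0707) was left out.

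Summed per branch, SMAD1, SMAD5 and SMAD9 came to 28.2 ± 1.26 FPKM in DLX5 libraries and 47.3 ± 0.546 FPKM in Control libraries. SMAD2 and SMAD3 came to 19.7 ± 0.320 FPKM in DLX5 libraries and 10.2 ± 0.0526 FPKM in Control libraries (SD, n = 3 each). Their ratio to the BMP SMADs was 0.700, 0.679 and 0.719 in the DLX5 libraries, against 0.218, 0.212 and 0.215 in the Control libraries. These are RNA levels and not those of phosphorylated protein. The ratio depends on gene length, by which FPKM divides, and SMAD3 made up most of its upper sum. SMAD2 was at 2.07 FPKM with DLX5 and 2.59 FPKM in Control. By CPM SMAD2 had more weight. It was at 90.3 to 103 CPM in the Control libraries, above SMAD3 at 67.1 to 70.7 CPM. In the DLX5 libraries it was at 75.0 to 76.8 CPM, below SMAD3 at 159 to 165 CPM. The branches were not summed by CPM, so their order in that unit was not tested.

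**Figure D3:**
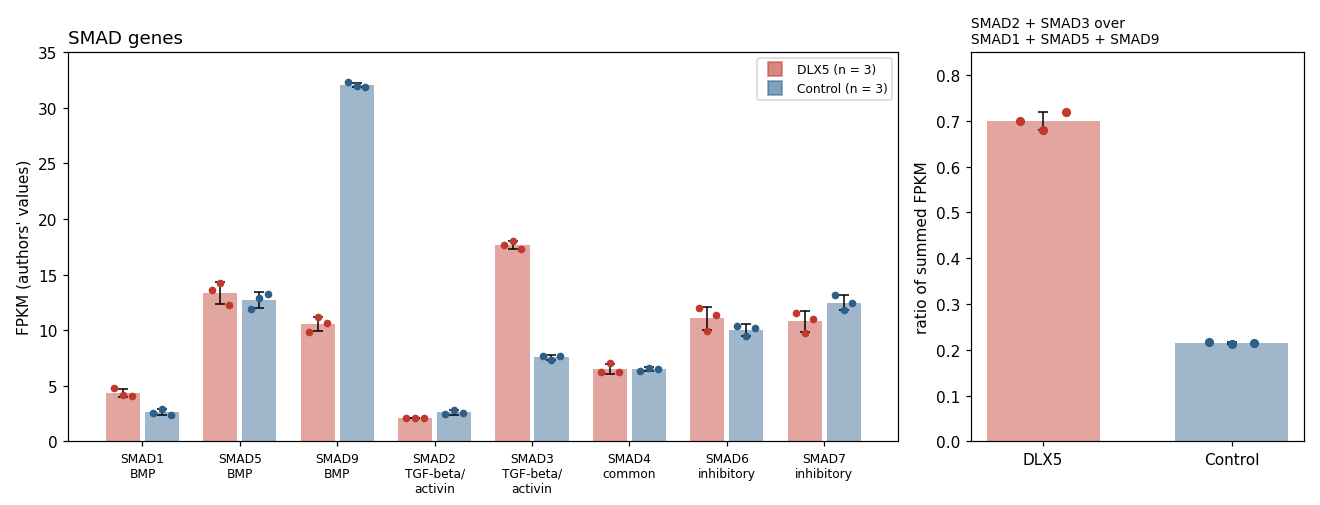
Left, FPKM of the 8 SMAD genes (bars, mean of 3 libraries; error bars, SD; points, libraries), DLX5 in red and Control in blue. Right, the FPKM ratio of the summed TGF-beta SMADs to the summed BMP SMADs per library, which depends on gene length. It lies between 0.679 and 0.719 in the DLX5 libraries and between 0.212 and 0.218 in the Control libraries.

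All 5 tested antagonists rose, beside 29.8% of all tested genes. FSTL1, a secreted follistatin-like protein known to bind BMP4 (chr3, 120392293 to 120451253, minus strand), measured 2010, 2121 and 1987 CPM in the DLX5 libraries, against 288, 301 and 288 CPM in the Control libraries, 6.98-fold higher (log2 fold change 2.80 ± 0.06, adjusted p = 3.92e-23). GREM1, a secreted binder of BMP2, BMP4 and BMP7 (chr15, 32717974 to 32745107, plus strand), measured 453, 475 and 427 CPM in the DLX5 libraries, against 143, 156 and 148 CPM in the Control libraries (log2 fold change 1.60 ± 0.06, adjusted p = 6.42e-18). FSTL3, which binds activins (chr19, 676365 to 683399, plus strand), measured 143, 126 and 138 CPM in the DLX5 libraries, against 65.7, 60.3 and 56.6 CPM in the Control libraries (log2 fold change 1.15 ± 0.07, adjusted p = 6.83e-14). In none of the 3 did the groups overlap.

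The BMP binder CHRD and the pseudoreceptor BAMBI rose less, by log2 fold changes of 0.81 ± 0.18 (adjusted p = 0.00035) and 0.25 ± 0.07 (adjusted p = 0.00403). Follistatin itself, FST, was hardly present, with 26 counts in the DLX5 libraries and 10 in the Control libraries (ratio 2.57, counting interval 1.20 to 5.98). Its libraries overlapped between the groups, at 4, 15 and 7 counts with DLX5 and 4, 4 and 2 in Control. NOG had 1 count with DLX5 and 0 in Control. Summed, the antagonists came to 329 ± 7.35 FPKM in DLX5 libraries and 82.3 ± 2.08 FPKM in Control libraries, and without FSTL1 to 97.8 ± 3.04 FPKM with DLX5 and 49.1 ± 1.82 FPKM in Control (SD, n = 3 each).

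Of the 4 genes named as latent TGF-beta binding proteins, 3 rose (75%, beside 29.8% of all tested genes) and LTBP2 did not pass. LTBP1 (chr2, 32946972 to 33399509, plus strand) measured 275, 282 and 268 CPM in the DLX5 libraries, against 34.8, 33.5 and 32.4 CPM in the Control libraries (log2 fold change 3.03 ± 0.07, adjusted p = 2.03e-23). LTBP3 measured 246, 228 and 247 CPM in the DLX5 libraries, against 155, 129 and 143 CPM in the Control libraries (log2 fold change 0.76 ± 0.07). LTBP4 rose by 0.88 ± 0.07, and LTBP2 was at 101 ± 3.49 CPM in DLX5 libraries and 90.8 ± 10.1 CPM in Control libraries (adjusted p = 0.0666). By FPKM, LTBP1 was the most abundant of the 4 in the DLX5 libraries, at 37.2 ± 1.06, and the least abundant in the Control libraries, at 4.55 ± 0.163.

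Among the feedback and target genes TGFBI, a matrix protein named for its induction by TGF-beta (chr5, 136028895 to 136063818, plus strand), rose most. It measured 32.7, 36.0 and 36.1 CPM in the DLX5 libraries, against 8.78, 10.0 and 9.07 CPM in the Control libraries (log2 fold change 1.91 ± 0.10, adjusted p = 2.42e-15). The ubiquitin ligases SMURF1 and SMURF2 rose by 0.37 and 0.46 on the log2 scale and the corepressor SKIL by 0.43. TRRAP shares exon bases with SMURF1 and had 447% as many counts, CEP95 with SMURF2 and had 74.6%, and NKILA with PMEPA1 and had 13.1%. The corepressor SKI fell to 128, 118 and 127 CPM in the DLX5 libraries, against 152, 128 and 149 CPM in the Control libraries (log2 fold change -0.20 ± 0.07, adjusted p = 0.0113), and PMEPA1, a TGF-beta-induced inhibitor of SMAD signalling, had a log2 fold change of 0.18 ± 0.08 (adjusted p = 0.0459). Both calls were fragile. SKI lost its call when DLX5 replicate 2 (adjusted p = 0.058), Control replicate 1 (0.0524) or Control replicate 3 (0.0556) was left out, and PMEPA1 lost its call in 10 of 15 alternatives.

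Genes known as targets of either branch were examined beside the members. This list and the next were written with earlier results of these data known. Of 12 tested BMP target genes 8 fell (66.7%) and 4 rose (33.3%), with a median log2 fold change of -0.84. Over all tested genes 28.8% fell and 29.8% rose, with a median of -0.0018. The sympathetic factors HAND1, GATA2 and GATA3 fell by 2.09, 1.84 and 1.68 on the log2 scale, the inhibitor of differentiation ID2 by 1.27 and ATOH8 by 1.11. HAND2, HEY1 and ID1 fell less, by 0.93, 0.75 and 0.39. HAND2 and GATA3 are also among the sympathetic markers above. The homeobox genes MSX1 and MSX2 rose, MSX1 from few reads (301 counts in the DLX5 libraries and 18 in the Control libraries), and ID4 and ID3 rose by 1.22 and 0.31. Of 14 tested TGF-beta target genes 12 rose (85.7%) and 1 fell (7.14%), and the median was 0.97. CTGF measured 63.9 ± 2.18 CPM in DLX5 libraries and 2.64 ± 0.550 CPM in Control libraries (log2 fold change 4.58 ± 0.11, adjusted p = 4.25e-22), and COL1A1, COL1A2, BHLHE40 and CYR61 rose by 3.93, 2.84, 2.30 and 1.78. Collagens are also fibroblast products, and the fibroblast markers rose in the same libraries; their part in this was not tested.

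**Figure D4:**
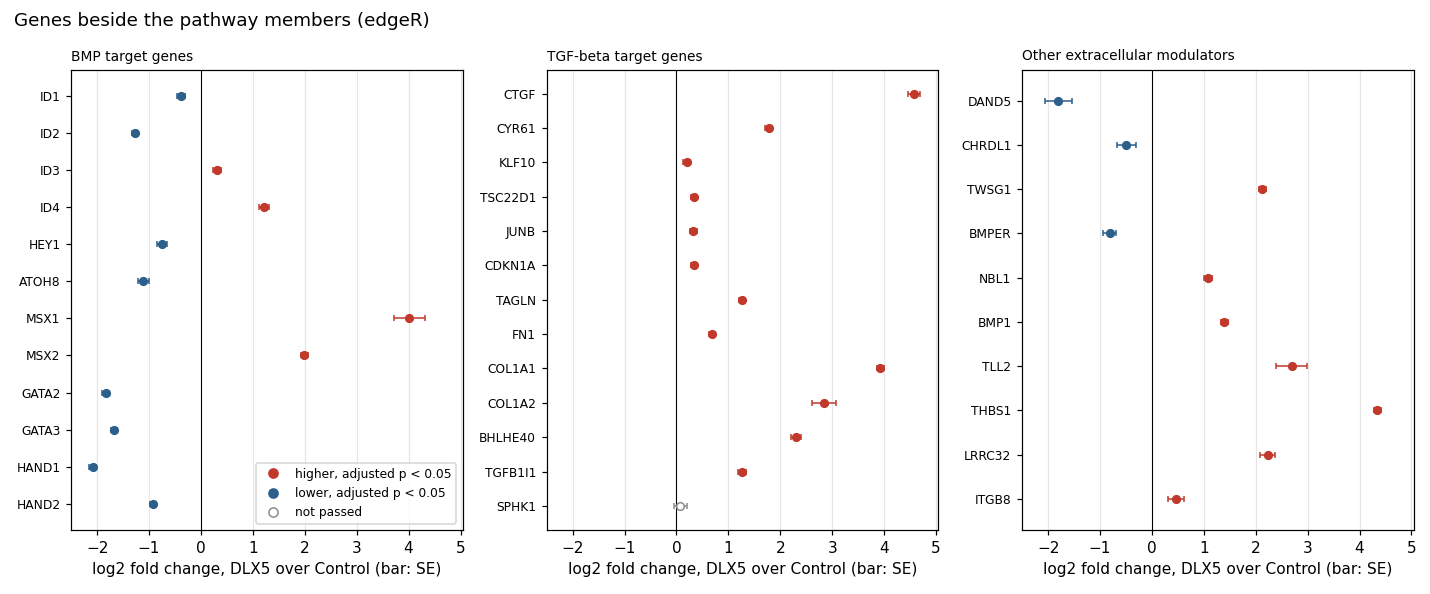
Log2 fold change, DLX5 over Control (points, edgeR; bars, standard error), of tested BMP target genes, TGF-beta target genes and other extracellular modulators that are reported here; red passed higher, blue passed lower and open points did not pass. Of the BMP targets 8 of 12 lie below 0, and 12 TGF-beta targets passed above it.

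Of 62 other pathway genes 38 were tested, 15 rose and 9 fell (39.5% and 23.7%), with a median log2 fold change of 0.09. Over all tested genes 29.8% rose and 28.8% fell. In all, 63.2% of this list passed beside 58.6% of all tested genes, so the list as a whole was near the background. The extracellular modulators moved most, 7 of 11 higher and 4 lower. THBS1, a matrix protein known to activate latent TGF-beta, measured 1094 ± 48.7 CPM in DLX5 libraries and 53.8 ± 2.36 CPM in Control libraries (log2 fold change 4.35 ± 0.07, adjusted p = 4.53e-26). LRRC32, which holds latent TGF-beta on cell surfaces, rose by 2.23, the BMP binder TWSG1 by 2.13, and the proteases TLL2 and BMP1 by 2.69 and 1.39. The antagonist DAND5 fell by 1.80, unlike the 5 tested antagonists among the members, and BMPER fell by 0.82. The coreceptor ENG fell to 66.5 ± 1.33 CPM in the DLX5 libraries, against 138 ± 3.61 CPM in the Control libraries. CHRDL1, a chordin-like binder, fell by 0.49 (adjusted p = 0.0241) but lost its call with DESeq2 (adjusted p = 0.115) and without DLX5 replicate 2, DLX5 replicate 3 or Control replicate 3 (0.0519, 0.0995 and 0.0908). Of 8 other ligands tested GDF15 and AMH rose by 0.57 and 0.33, and GDF7 and BMP8B fell by 0.83 and 0.72. PPIE, on the other strand, shares 1.66% of the exon bases of BMP8B and had 227% as many counts. Among 14 intracellular regulators the corepressors TGIF1 and TGIF2 rose by 1.43 and 0.44 and the ubiquitin ligases NEDD4L and RNF111 by 0.70 and 0.61, while the phosphatase PPM1A fell by 0.23. The deubiquitinase USP9X rose by 0.39, and TRIM33, a ubiquitin ligase that acts on SMAD4, fell by 0.24 with its call lost without DLX5 replicate 1 or Control replicate 3 (adjusted p 0.0506 and 0.0601).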

How the data were processed

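Total RNA of 6 SY5Y libraries was extracted with Trizol and prepared with NEBNext Ultra, per the labels' protocols. HISAT2 2.0.5, featureCounts 1.5.0-p3 and hg19 are named in the submitters' processing notes; all 58735 deposited genes have the starts and ends of GENCODE 29 on GRCh38, so coordinates are given as GRCh38. The strand setting was not given in these sources. The deposited values are whole-number counts and the authors' FPKM, which equal counts over gene length and a scaled total (0.968 to 1.03 times the count sum) and so hold the same reads.

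Counts were tested with edgeR 4.0.16 in R 4.3.3 (TMM, filterByExpr, two-sided quasi-likelihood test, Benjamini-Hochberg over 17269 genes, 3 libraries a group, no covariate). The biological coefficient of variation was 6.17%. The standard error is the size of the log2 fold change over the square root of F. An exact permutation test of 3 against 3 cannot go below p = 0.1. Intervals cover counting error only. Between libraries of the same group, chi-square over its degrees of freedom was 2.31 to 5.42, so none was taken for a copy. The test was checked on simulated counts.

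The members and lists were chosen with earlier results of these data known. Every member was named, with full values for those that passed at 2-fold or more and for the most abundant of each role. Of the other lists, up to 5 genes each way with the largest change at 1 CPM or more were named. HAND2, HEY1 and ID1 were named as well, to complete the BMP targets that fell. A few genes of these lists are counted but not reported here by name. Alternatives used DESeq2 1.42.0, limma 3.58.1 and other filters, scalings and left-out libraries. Figures were drawn with matplotlib 3.10.9.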

Additional observations from a re-analysis of the deposited data

How the results depend on the processing

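Over 15 alternatives the 41 tested members gave 615 values, of which 589 kept their direction and their side of the threshold, 15 lost the call, 6 gained it and 5 changed sign. The sign changes were in members that did not pass: SMAD4 at -0.0596 (log2 fold change) with library totals, an alternative chosen after seeing the data, and from -0.0417 to 0.0403 with single libraries left out, and BMP2 from -0.232 to 0.0688. Losses were in PMEPA1, SKI and SMAD7, and gains in SMAD6, LTBP2 and GDF11. Members higher numbered 21 to 24 and lower 10 to 13. With the replicate number as a block 24 rose and 12 fell; same-numbered libraries correlated by 0.00688, 0.0944 and -0.0399, so the numbers were not taken as pairs. Summed CPM in place of FPKM changed the log2 ratio of the BMP and GDF ligands to 0.42 (0.83 with FPKM), of the SMADs to -0.0654 (-0.18) and of the antagonists to 2.29 (a ratio of 4.89); FPKM divides by gene length and CPM does not. Library totals moved the median of all genes to -0.07. A pseudocount shrinks low genes by construction: with log2(FPKM + 1), BMP4 was at 1.70, BMP7 at -2.38, BMPR1B at -0.83 and TGFBI at 1.32, and with log2(FPKM + 0.1) BMP4 was at 4.29. Depth limits the 7 members that were not tested, and BMP4, whose 4 Control counts leave its fold loose.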

Other observations

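Some pathway genes outside the members had too few reads to be tested but had reads mainly with DLX5 or mainly in Control. They were chosen after their values were seen. BMP3, a BMP family ligand, had 13 counts in the DLX5 libraries and 0 in the Control libraries. With the Control group set to a floor of 3 counts this is 4.29-fold higher. The exact 95% counting interval of the ratio starts at 3.02, so the floor gives no lower bound. TLL1, a protease, had 12 counts with DLX5 and 0 in Control (3.96-fold higher by the same floor, counting interval from 2.75). SOST, a secreted antagonist, had 10 counts with DLX5 and 0 in Control (3.30-fold higher by the same floor, counting interval from 2.22). ITGB6, a subunit of an integrin that activates TGF-beta, had 30 counts in the DLX5 libraries and 2 in the Control libraries (ratio 14.8, exact 95% counting interval 3.77 to 128). In the other direction, AMHR2, the receptor of anti-Mullerian hormone, had 2 counts in the DLX5 libraries and 12 in the Control libraries (ratio 0.165, counting interval 0.0179 to 0.741). The ligand gene GDF10 had 10 counts with DLX5 and 30 in Control (ratio 0.330, counting interval 0.144 to 0.693). INHBC had 10 counts with DLX5 and 25 in Control (ratio 0.396, counting interval 0.170 to 0.853).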
